A study of Homo sapiens with 2 samples.

Results

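The transcripts described here encode the machinery that starts transcription by RNA polymerase II: SUB1, 23 subunits of the general transcription factors TFIIA, TFIIB, TFIID, TFIIE, TFIIF and TFIIH, and 21 subunits of Mediator, 45 genes in all. The list was drawn up with earlier results of these data known, and its probes were found by name, as every gene probe of the array whose name in the scanner files is a current symbol or an older alias of a listed gene (CRSP8 for MED27, SURB7 for MED21). Of the 45 genes, 44 had a probe well above background, among the 19218 genes kept on the arrays. MED18, a subunit of the Mediator head, did not: its signals of 67.1 and 69.7 in Cy3 and 77.6 and 74.9 in Cy5 were not well above background. The 45 genes had 66 of the 41000 probes of the array, and 62 of the 66 were kept.

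The samples were PC3 cells, an established line from metastatic prostate cancer, cultured with fetal bovine serum. Cells transfected with a SUB1 siRNA (siRNA 1 or siRNA 2) were compared on the same array with PC3 cells transfected with Non-T siRNA, a non-targeting duplex. All cells received the same duplex again 24 h after the first transfection and were harvested 72 h after the first. The SUB1 siRNA RNA was labeled with Cy5 and the Non-T siRNA RNA with Cy3, with 1 array for each SUB1 siRNA, no dye swap and both arrays on 1 slide. This is how the labels name the source of each channel, although another label field lists both siRNAs under Cy3, and the sign of every ratio rests on it. SUB1, which the paper reports as lowered by its siRNAs in PC3, gave the lower signal in Cy5 on both arrays. Without a dye swap, the dye and the knockdown cannot be told apart within a ratio, and each siRNA was measured once. Every ratio below is the log2 of the SUB1 siRNA signal over the Non-T siRNA signal, so that -1 is a 2-fold lower level with the SUB1 siRNA. Signals are normalized intensities on a linear scale, and a gene is given by its brightest kept probe unless said otherwise.

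Transcription of protein-coding genes begins when TFIID, which holds the TATA-binding protein TBP and the TBP-associated factors (TAFs), settles on a core promoter. TFIIA and TFIIB then stabilize TBP on the DNA, TFIIF arrives with the polymerase, and TFIIE and TFIIH follow, TFIIH opening the DNA and phosphorylating the polymerase tail. Mediator, built of head, middle and tail modules on the MED14 backbone and a detachable kinase module, carries signals from DNA-bound activators to this assembly. SUB1, also called PC4, is a single-stranded DNA-binding coactivator that works with these factors on activator-dependent promoters.

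SUB1, the targeted transcript, fell with both siRNAs. Its Non-T siRNA signals were 8684 and 7589 on the arrays of siRNA 1 and siRNA 2, against SUB1 siRNA signals of 882 and 791. The levels left were 10.2% with siRNA 1 and 10.4% with siRNA 2, so the channels did not come near each other on either array. In RNA of a whole culture, fewer cells with a transcript and less of it per cell cannot be told apart. The mean log2 ratio was -3.28 ± 0.095 (SE moderated by limma, n = 2 arrays, adjusted p = 0.0248 in limma). Every SE given here is of this kind. It blends the gene's own spread between the 2 arrays with that of all genes, so it is not the plain SE of 2 values. SUB1 was the only one of the 44 members past an adjusted p of 0.05, and the only one of all 19218 genes (0.0052% lower, 0% higher). With 5 of the 9 other ways of processing, the mean ratio of SUB1 stayed between -3.33 and -3.02 and its adjusted p lay between 0.0691 and 0.175, and no member passed. An unadjusted p under 0.05 was reached by 9 members, 2 of them lower and 7 higher, and by 20.9% of all genes. The test treats the siRNAs as 2 knockdowns of 1 gene and sets them against 0, so it leaves out the spread of Non-T siRNA cultures.

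All 4 SUB1 probes gave a lower signal with both siRNAs, but not to the same degree. The 3 brighter probes had log2 ratios of -3.30, -3.35 and -3.75 with siRNA 1 and of -3.26, -3.16 and -3.50 with siRNA 2. The dimmest had -1.81 with siRNA 1 and -1.57 with siRNA 2. Its Cy3 signals were 356 and 330, and its Cy5 signals only 102 and 111. The lowest Cy5 signals classed as well above background were 66.3 and 63.0, so its ratio had little room to fall further. This probe matches chr5:32639687-32639746 of hg18, the build in the headers of the scanner files. The other 3 lie between positions 32627451 and 32636916 on the same strand. A link between position and ratio was not tested.

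**Figure D1:**
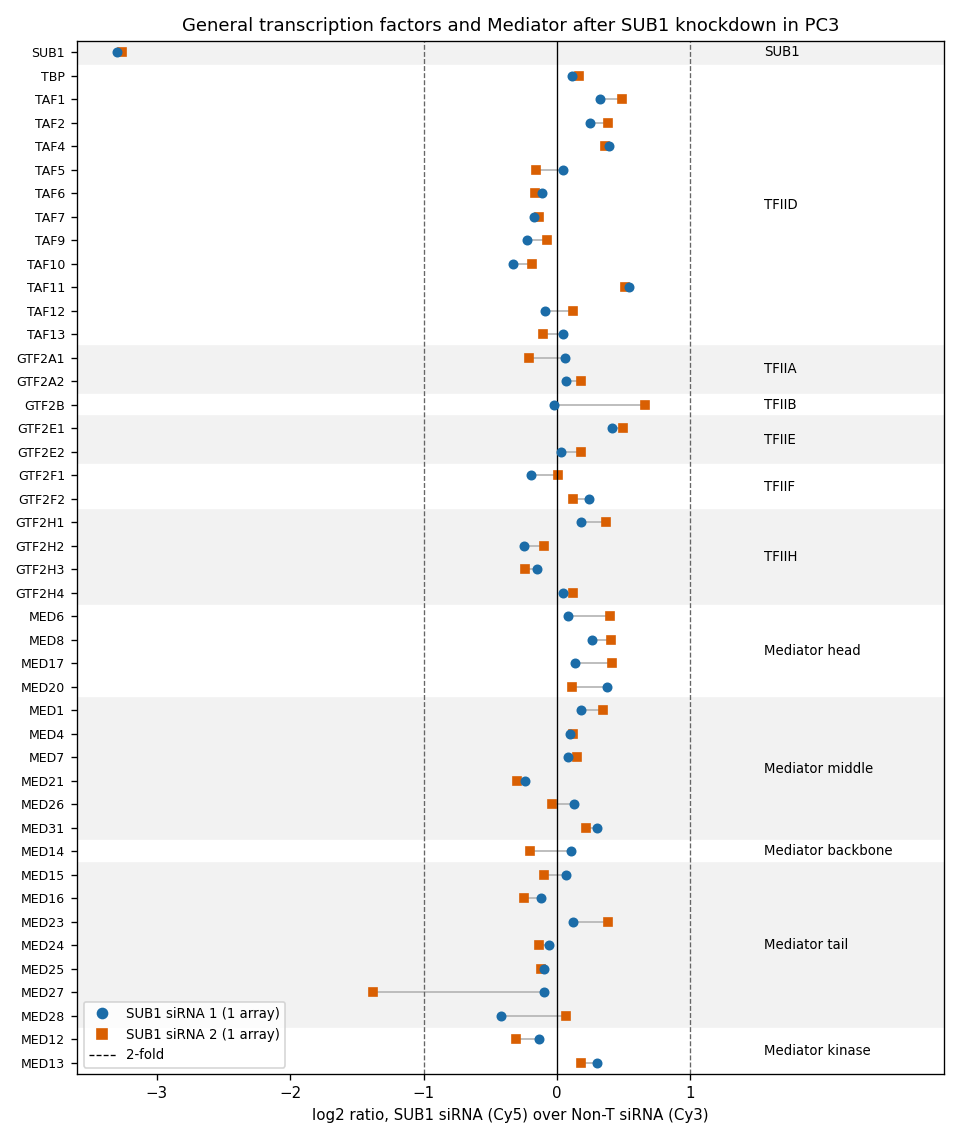
Log2 ratio against Non-T siRNA (x axis) for SUB1 and the 43 other kept members (y axis, by complex), with 1 point per array and a gray line joining the arrays. SUB1 lies near -3.3 with both siRNAs, MED27 is the only other point past the dashed 2-fold lines, with siRNA 2 alone, and GTF2B has the second longest line.

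Apart from SUB1, the log2 ratios of this machinery had an SD of 0.21 with siRNA 1, under the 0.30 of all genes. With siRNA 2 the SD was 0.34 for both, with MED27 included. On both arrays, 24 of 43 members without SUB1 lay within 0.3 of 0, as did 11503 of all 19218 genes. With siRNA 1, SUB1 was the only member at least 2-fold lower (0.609% of all genes were) and 0 members were at least 2-fold higher (0.208% of all genes). With siRNA 2, SUB1 and MED27 were at least 2-fold lower (1.07% of all genes) and again 0 members were at least 2-fold higher (0.614% of all genes). At 1.5-fold, the counts were 1 lower (3.02% of all genes) and 0 higher (2.43%) with siRNA 1, and 2 lower (4.23%) and 1 higher, GTF2B (3.51%), with siRNA 2. Without the targeted gene, each of these 8 counts is 0 or 1 of 43, near the background. The 43 members without SUB1 ranged from -0.42 (MED28) to 0.54 (TAF11) with siRNA 1 and from -1.38 (MED27) to 0.66 (GTF2B) with siRNA 2. Their median was 0.067 with siRNA 1 and 0.12 with siRNA 2, where the median of all genes was 0.024 on each array. A log2 ratio under 0 was seen for 17 of 44 members with siRNA 1 (45.9% of all genes) and for 19 of 44 with siRNA 2 (46.4% of all genes). With each array centered on its median in place of loess, these counts became 9 and 12, beside 31.5% and 32.8% of all genes, so the side of 0 on which a small ratio falls is not settled by these data. For scale, the median SD among spots of a probe spotted 10 times on an array was 0.078 and 0.074 on the log2 scale, which is technical error only.

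MED27 was the member that differed most between the siRNAs. It is a Mediator subunit placed at the tail, where it sits beside the head, and had 1 probe, named CRSP8 in the files, at chr9:133879590-133879649 on the minus strand of hg18. Its Non-T siRNA signals were almost alike, 214 and 220 on the arrays of siRNA 1 and siRNA 2. The SUB1 siRNA signals were 200 with siRNA 1 and 84.3 with siRNA 2. The siRNA 1 signal therefore lay just under its control, and only the siRNA 2 signal was far below. The log2 ratios were -0.10 and -1.38, the latter a 2.61-fold lower level, at percentile 0.31 of all genes on that array. The mean of -0.74 ± 0.32 (SE, n = 2 arrays) was not past the threshold (limma, adjusted p = 0.277), and its 95% interval ran from -1.59 to 0.10. The signal of 84.3 was well above background, where the lowest Cy5 signal so classed on that array was 63.0, and the ratio of such a dim spot depends on the background treatment. With the processed signals of the scanner software its log2 ratio with siRNA 2 was -2.91, and under the other alternatives it lay between -1.38 and -1.23.

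The 5 kept genes whose pair of ratios lay nearest to that of MED27, by Euclidean distance over the 2 arrays, were SCAMP3 (a membrane protein of secretory carriers), an unnamed probe (A_32_P148407), RAMP1 (a receptor activity-modifying protein), the glycolytic enzyme ENO1 and METTL9, a methyltransferase. SCAMP3 was the closest, with -0.06 and -1.45 at a distance of 0.076. METTL9 was the farthest of the 5, with -0.08 and -1.21 at 0.18. With 2 arrays, such a likeness describes these 2 values and nothing more.

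GTF2B, which encodes TFIIB and brings the polymerase to TBP-bound promoters, had the largest ratio of any member with siRNA 2. Its Non-T siRNA signals were 792 and 837, and its SUB1 siRNA signals were 780 with siRNA 1 and 1321 with siRNA 2. The siRNA 1 channels differed little, and the siRNA 2 signal stood above the 3 other signals. The log2 ratios were -0.02 and 0.66, a 1.58-fold higher level with siRNA 2. The mean of 0.32 ± 0.19 (SE, n = 2 arrays) was not past the threshold (limma, adjusted p = 0.386). MED27 and GTF2B were the 2 of 44 members whose ratios with the siRNAs lay at least 1.5-fold apart (6.18% of all genes did), at -1.28 and 0.68 for siRNA 2 minus siRNA 1. The difference between the siRNAs could not be tested with 1 array each.

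Promoters of these genes were read from a RefSeq table of GRCh38.p14, which spans 250 bases before and 50 after each gene's start. 36 of the 45 genes matched by symbol, and SUB1, TAF2, GTF2E2, MED6, MED8, MED13, MED14, MED21 and MED28 are named only. The promoters of 4 genes are shown because their values stand out among the members: MED27 and GTF2B, whose ratios differed between the siRNAs, and TAF11 and GTF2E1, which had the highest mean ratios. Capitals mark the letters of the motifs searched on both strands: TATAAA for the TATA box, CCAAT for the CCAAT box, GGGCGG for the GC box, CCGGAAG for the ETS site, TGACGTCA for the cAMP response element and ATGGCGG for the core of the YY1 site. Motifs can overlap.
MED27 (chr9:132079818-132080117, minus strand): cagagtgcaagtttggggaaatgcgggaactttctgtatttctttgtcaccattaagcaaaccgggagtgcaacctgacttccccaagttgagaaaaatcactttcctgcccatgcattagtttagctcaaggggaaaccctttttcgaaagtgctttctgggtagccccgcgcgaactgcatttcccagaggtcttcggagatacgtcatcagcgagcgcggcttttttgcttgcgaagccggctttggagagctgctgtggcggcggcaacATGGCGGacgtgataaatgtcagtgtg
GTF2B (chr1:88891518-88891817, minus strand): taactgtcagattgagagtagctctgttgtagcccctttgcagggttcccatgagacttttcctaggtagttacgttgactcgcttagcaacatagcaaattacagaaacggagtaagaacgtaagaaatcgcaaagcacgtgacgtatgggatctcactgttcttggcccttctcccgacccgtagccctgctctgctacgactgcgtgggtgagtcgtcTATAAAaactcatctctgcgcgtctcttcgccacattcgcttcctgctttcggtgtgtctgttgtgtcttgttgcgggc
TAF11 (chr6:34887993-34888292, minus strand): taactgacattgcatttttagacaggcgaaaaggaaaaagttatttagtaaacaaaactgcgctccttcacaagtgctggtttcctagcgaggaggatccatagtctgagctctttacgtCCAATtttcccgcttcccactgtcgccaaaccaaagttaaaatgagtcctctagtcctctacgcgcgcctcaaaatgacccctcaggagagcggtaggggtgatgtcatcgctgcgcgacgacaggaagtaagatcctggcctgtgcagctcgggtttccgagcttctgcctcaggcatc
GTF2E1 (chr3:120742494-120742793, plus strand): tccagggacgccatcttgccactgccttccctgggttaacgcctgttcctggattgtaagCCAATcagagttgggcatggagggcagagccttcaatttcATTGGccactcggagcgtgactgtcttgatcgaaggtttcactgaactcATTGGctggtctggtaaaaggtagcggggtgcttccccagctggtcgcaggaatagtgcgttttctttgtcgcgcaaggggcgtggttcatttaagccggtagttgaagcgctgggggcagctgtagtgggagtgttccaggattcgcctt

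The GTF2B window holds a TATA box that begins 29 bases before the start, and the MED27 window the YY1 core 23 bases after it. TAF11 has 1 CCAAT box, which begins 130 bases before the start, and GTF2E1 has 3, at 190, 150 and 101 bases before it, of which the latter pair is on the other strand. TAF11 has a second start in the table, and the first listed is shown. Among the 36 promoters of members, counted at the first listed start, 3 held TATAAA (8.33%, against 12% of 27305 genes), 10 CCAAT (27.8% against 35.7%) and 19 GGGCGG (52.8% against 44.6%). CCGGAAG was in 14 (38.9% against 10.7%), ATGGCGG in 8 (22.2% against 5.72%) and TGACGTCA in 2 (5.56% against 1.98%). A match is a run of letters and not a bound site, and the genes shown do not share a motif beyond the CCAAT box of TAF11 and GTF2E1.

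**Figure D2:**
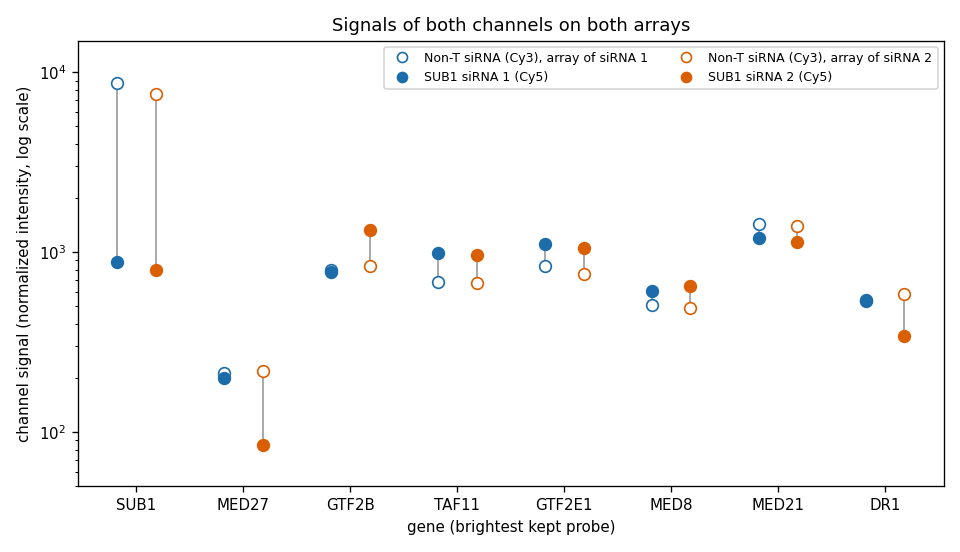
Normalized intensity (y axis, log scale) of the Non-T siRNA channel (open circles) and the SUB1 siRNA channel (filled circles) on both arrays for 8 genes (x axis, brightest kept probe). The SUB1 channels are 9.84-fold and 9.59-fold apart. By the probes shown, MED27 and DR1 are well below their control with siRNA 2 alone, and GTF2B is higher with siRNA 2 alone. Another DR1 probe, not shown, was lower with both siRNAs.

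In TFIID, 12 of 12 genes were kept, and 5 had a ratio under 0 with siRNA 1 and 6 with siRNA 2. Over all genes, 45.9% and 46.4% did, and these shares stand beside the same count in each complex below. TAF11, a histone-fold subunit that pairs with TAF13 and touches TFIIA, had the largest mean ratio. Its Non-T siRNA signals were 683 and 676, and its SUB1 siRNA signals were 994 with siRNA 1 and 964 with siRNA 2. Both SUB1 siRNA signals lay above both controls, with log2 ratios of 0.54 and 0.51. The mean of 0.53 ± 0.095 (SE, n = 2 arrays) was not past the threshold (limma, adjusted p = 0.120), although its unadjusted p was 0.00365. TAF13, its partner, was dim, with 0.04 and -0.10. TAF1, the scaffold of TFIID (0.32 and 0.49), TAF4, which pairs with TAF12 (0.39 and 0.36), and TAF2, which reads the initiator element (0.25 and 0.38), also had unadjusted p-values under 0.05. Their adjusted p-values in limma were 0.155, 0.155 and 0.196. A second TAF1 probe, with Cy3 signals of 106 and 97.7, gave -0.12 and 0.11 instead, and of the 2 other TAF2 probes 1 gave -0.01 and 0.11. TAF10, which TFIID shares with the SAGA coactivator, was the lowest of the group by mean, with -0.33 and -0.19, and the latter was 0.04 with median centering. TAF6 and TAF9, which form a histone-like pair, had -0.11 and -0.16, and -0.22 and -0.08. TBP itself, spotted 10 times, had log2 ratios of 0.11 and 0.16 with SDs among spots of 0.077 and 0.070.

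TFIIA and TFIIE gave ratios of different size. GTF2A1 and GTF2A2, the subunits of TFIIA, which steadies TBP on DNA, had 0.06 and -0.21, and 0.07 and 0.18. GTF2E1, the large subunit of TFIIE, which recruits TFIIH, had Non-T siRNA signals of 841 and 754 and SUB1 siRNA signals of 1116 and 1061. Again both knockdown signals exceeded both controls. Its log2 ratios were 0.41 and 0.49, with a mean of 0.45 ± 0.097 (SE, n = 2 arrays; limma, adjusted p = 0.137). The small subunit GTF2E2 had 0.03 and 0.18.

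TFIIF and TFIIH had small ratios. In TFIIF, which escorts the polymerase, GTF2F2 had Non-T siRNA signals of 2147 and 2117 and SUB1 siRNA signals of 2538 and 2300, with log2 ratios of 0.24 and 0.12 (mean 0.18 ± 0.099, SE; limma, adjusted p = 0.360). Its second probe differed by at most 0.018 on either array. GTF2F1 had -0.20 and 0.01. In TFIIH, the factor that also serves DNA repair, 2 of 4 genes had a ratio under 0 with each siRNA. GTF2H1, the p62 subunit, had the largest mean ratio, 0.27 ± 0.10 (SE, n = 2 arrays; limma, adjusted p = 0.243). Its signals were 658 and 618 with Non-T siRNA and 744 and 798 with the SUB1 siRNAs, giving 0.18 and 0.37. GTF2H3 had -0.15 and -0.24, and GTF2H4 had 0.05 and 0.12. GTF2H2 had -0.25 and -0.10, but its gene has near-identical copies on the same chromosome, so its probe may read more than 1 of them.

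By brightest probe, the Mediator head, which contacts the polymerase, had no measured member under 0 with either siRNA among 4 (MED6, MED8, MED17 and MED20). Of all genes, 45.9% and 46.4% were under 0. With the mean of all kept probes, 3 of the 4 were above 0 with both siRNAs. The medians of the 4 were 0.20 with siRNA 1 and 0.40 with siRNA 2. MED8 had the largest mean, with Non-T siRNA signals of 509 and 489 and SUB1 siRNA signals of 612 and 649. Its log2 ratios were 0.26 and 0.41 (mean 0.34 ± 0.10, SE; limma, adjusted p = 0.184). A second MED8 probe gave -0.30 and -0.01, so the mean of both probes with siRNA 1 was -0.02. MED6 had 0.08 and 0.40, MED17, the scaffold of the head, 0.14 and 0.41, and MED20 0.37 and 0.12. A second MED6 probe gave -0.02 and 0.28. For MED17, a second probe gave 0.13 and 0.56, and the dimmest gave -0.17 and -0.003. None of the 4 passed the adjusted threshold, and 1 of 4, MED8, had an unadjusted p under 0.05.

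In the middle module and backbone, 1 of 7 genes had a ratio under 0 with siRNA 1 (45.9% of all genes) and 3 of 7 with siRNA 2 (46.4% of all genes). MED21, which pairs with MED7 in the hinge of the middle module, had the largest absolute mean and was the lowest. Its Non-T siRNA signals were 1427 and 1391, above its SUB1 siRNA signals of 1206 and 1132 on both arrays. The log2 ratios were -0.24 and -0.30, with a mean of -0.27 ± 0.095 (SE, n = 2 arrays; limma, adjusted p = 0.221). With median centering they shrank to -0.01 and -0.06. MED7 itself had 0.08 and 0.15. MED31 had 0.30 and 0.22 (limma, adjusted p = 0.236), and its unadjusted p of 0.0481 was under 0.05. MED1, the subunit bound by nuclear receptors, had 0.18 and 0.35. MED4 had 0.10 and 0.12, MED26, a link to elongation factors, 0.12 and -0.04, and MED14, the backbone, 0.10 and -0.20.

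In the tail, which binds activators, 5 of 7 genes had a ratio under 0 with each siRNA (45.9% and 46.4% of all genes), with medians of -0.10 and -0.12. A difference between the modules was not tested. Besides MED27, MED28 differed most between the siRNAs there, with Non-T siRNA signals of 514 and 492 and SUB1 siRNA signals of 384 and 517. Its log2 ratios were -0.42 and 0.07, from a probe that does not match a RefSeq transcript. The MED28 probe that does match was not well above background and gave 0.22 and 0.21. MED23 had 0.12 and 0.38, MED15 0.07 and -0.09, MED16 -0.12 and -0.25, MED24 -0.06 and -0.13, and MED25 -0.10 and -0.12. In the kinase module, which docks on Mediator and holds CDK8, MED13, the subunit that joins the module to the core, had the largest mean. Its Non-T siRNA signals of 257 and 281 compared with 317 and 318 with the SUB1 siRNAs. The log2 ratios were 0.30 and 0.18, with a mean of 0.24 ± 0.099 (SE, n = 2 arrays; limma, adjusted p = 0.262). A second MED13 probe gave 0.01 and 0.10, and the mean of both probes was 0.16 with siRNA 1. MED12, which activates CDK8, was dim and had -0.13 and -0.31.

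**Figure D3:**
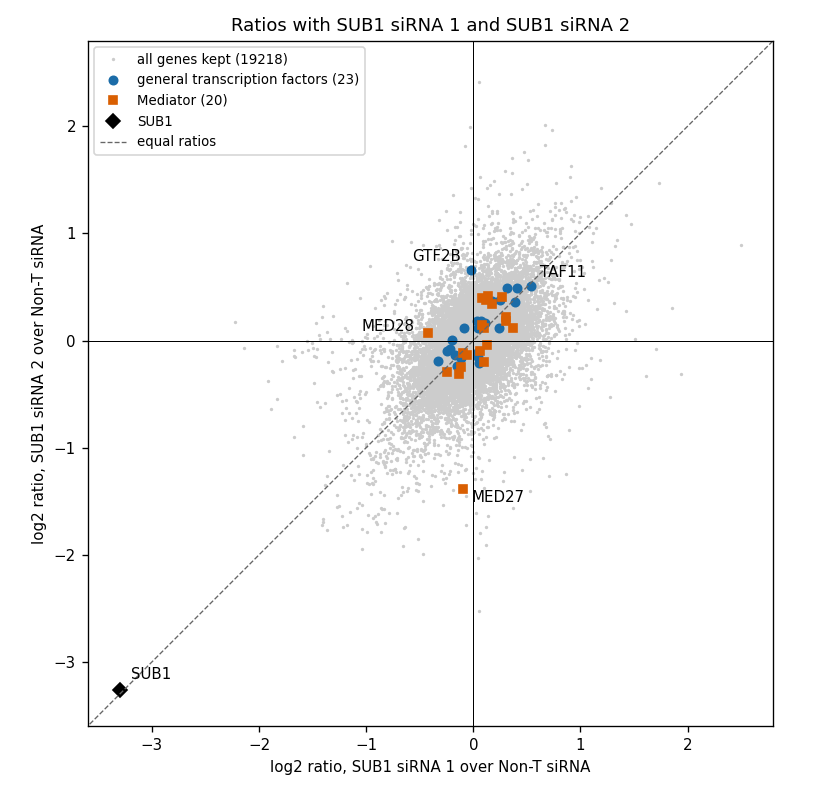
Log2 ratio with SUB1 siRNA 1 (x axis) against that with SUB1 siRNA 2 (y axis) for 19218 genes (gray), 23 general transcription factor genes (blue), 20 Mediator genes (orange) and SUB1 (black), with 1 array per axis and a dashed line of equal ratios. SUB1 lies at -3.30 and -3.26 and MED27 at -0.10 and -1.38, GTF2B and TAF11 lie toward the upper edge of the dense center, and the other members lie among the bulk of all genes.

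The members differed more between arrays in the SUB1 siRNA channel than in the control channel. Between the arrays, the Cy3 signal of the 44 members differed by a median of 0.055 (absolute log2) and the Cy5 signal by 0.12. Over all genes, these medians were 0.069 and 0.15. Whether the Non-T siRNA RNA on both arrays was 1 extract is not given in the sources used here.

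Where a member had several kept probes, they often did not give the same sign. Of 13 such members, 7 had probes whose mean ratios shared a sign. GTF2A1, MED8, MED17, MED26, TAF1 and TAF9 did not. Leaving SUB1 aside, the widest spread among probes of a gene was 0.56 for MED8 with siRNA 1 and 0.56 for MED17 with siRNA 2. These spreads are as large as any ratio of the members past SUB1 and MED27, except GTF2B with siRNA 2. One further probe named TAF9 in the files belongs to AK6 in the current RefSeq table and was left out of TAF9, with 0.22 and -0.18.

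**Figure D4:**
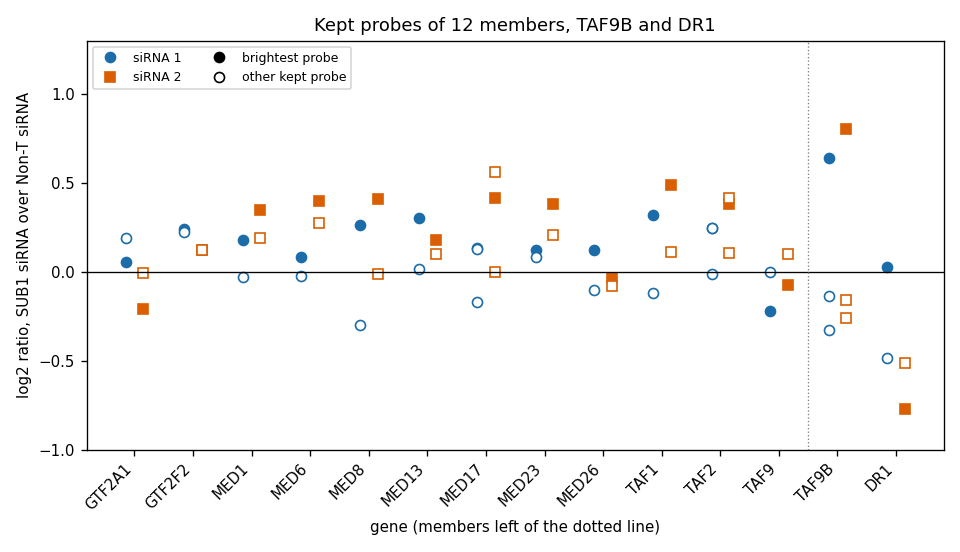
Log2 ratio against Non-T siRNA (y axis) for each kept probe of 12 members with several kept probes and of TAF9B and DR1 (x axis), with circles for siRNA 1, squares for siRNA 2 and filled symbols for the brightest probe. The 2 dimmer TAF9B probes lie under 0 and the brightest lies at 0.64 and 0.80, and the probes of MED8, MED17 and TAF1 lie on both sides of 0.

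The other subunits of the same complexes and the TBP-binding factors formed a companion list of 29 genes, of which 25 were kept and 0 passed an adjusted p of 0.05 in limma (6 had an unadjusted p under 0.05, beside 20.9% of all genes). Their medians were 0.033 and 0.068. At 1.5-fold, 1 was lower and 1 higher with each siRNA (3.02% and 2.43% of all genes with siRNA 1, 4.23% and 3.51% with siRNA 2), and these were 3 genes. TAF9B, a paralog of TAF9, had Non-T siRNA signals of 504 and 521 and SUB1 siRNA signals of 787 and 909, with log2 ratios of 0.64 and 0.80 (mean 0.72 ± 0.10, SE; limma, adjusted p = 0.112). That value rests on 1 probe, which does not match a RefSeq transcript, while its 2 other kept probes gave -0.14 and -0.33 with siRNA 1 and -0.16 and -0.26 with siRNA 2. MED30, counted here with the head, had signals of 507 and 502 with Non-T siRNA and 304 and 385 with the SUB1 siRNAs, with log2 ratios of -0.74 and -0.38 (mean -0.56 ± 0.13, SE; limma, adjusted p = 0.141).

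DR1, the NC2 subunit that represses TBP by blocking TFIIA and TFIIB, had signals of 535 and 582 with Non-T siRNA and 545 and 341 with the SUB1 siRNAs, with log2 ratios of 0.03 and -0.77 (mean -0.37 ± 0.21, SE; limma, adjusted p = 0.372). On the array of siRNA 2, where GTF2B was higher and MED27 lower, DR1 was thus the companion with the lowest ratio. A second DR1 probe, with like Cy3 signals of 570 and 559, was lower with both siRNAs, at -0.49 and -0.51. The first probe, unlike the second, has no hg18 position in the scanner files, so a fall with siRNA 2 alone rests on that probe. With these companions and by brightest probe, 1 of 9 measured subunits counted with the head, MED30, had a ratio under 0 with each siRNA. Dimmer probes were less uniform with siRNA 1: those of MED22 gave -0.12 and -0.09, and those of MED29 gave -0.28 and 0.01. With siRNA 2, these dimmer probes lay above 0. In TFIIH with its companions, 5 of 10 did with siRNA 1 and 6 of 10 with siRNA 2. Among them CCNH, the cyclin of the TFIIH kinase, had -0.31 and -0.49, and the kinase CDK7 had -0.23 and -0.07. ERCC2, another TFIIH companion, had 0.01 and -0.04 by its brightest probe. Its second kept probe gave -0.40 and -0.72, the latter past 1.5-fold.

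The label of the cells was checked in the Cy3 channel. All 5 genes fixed for PC3 (KRT8, KRT18, KRT19, EPCAM and VIM) were well above background, with signals of at least 854. TMPRSS2 was not well above background, KLK2 reached at most 105, and of 3 KLK3 probes 1 was bright, at 20155 and 19909, and the others were not well above background on both arrays, so which transcript the bright probe reads is not settled here. The leukocyte, fibroblast and endothelial genes had signals of at most 144. Even so, 2 of 4 leukocyte, 3 of 4 fibroblast and 1 of 3 endothelial genes were well above background on both arrays. PTPRC, COL1A2, CDH5 and VWF were among those that were not. The arrays had 54.3% of gene spots well above background in Cy3 and 67.2% and 64.5% in Cy5.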

How the data were processed

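Two-color Agilent whole human genome arrays of PC3 cells were analyzed, 1 for SUB1 siRNA 1 and 1 for SUB1 siRNA 2 (Cy5), each against Non-T siRNA (Cy3). The authors deposited the spot intensity and local background of both channels from Feature Extraction, with the processed intensity of that software, and a table of log2 ratios, which per their methods were loess-normalized on each array with agilp. The table served as an alternative. It correlated with the ratios computed here at 0.924 and 0.942 across spots, which settled its direction. The spot log10 ratios and p-values of the scanner software hold the authors' comparison and were not used.

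Mean signals were background-corrected by normexp (offset 50) and ratios normalized within each array by loess with a span of 0.3 (R 4.3.3, limma 3.58.1). Outlier spots were dropped (112 and 100), spots of a probe averaged, and a probe was kept if on each array 0.5 or more of its spots passed the scanner software's background test in Cy3 or Cy5. The brightest probe stood for each of 19218 genes, of which 13129 were named through RefSeq. Channel signals are those after loess and Aquantile scaling. The mean of both arrays was tested against 0 (lmFit, eBayes, Benjamini-Hochberg over all genes), and the fold rule of 2 is that of the study's methods. The number of arrays limits the precision. The SEs and p-values combine a gene's own spread between these 2 arrays with the spread pooled over all genes, and measure no other spread. The fit was also run on simulated ratios whose noise was independent between arrays and had the same SD for every gene. The real ratios correlated at 0.514 between the arrays, so that run does not test these p-values.

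The members, the companion list and the tests were chosen with earlier results of these data known. Named in full were SUB1, members at least 1.5-fold different with at least 1 siRNA, the largest absolute mean ratio of each complex, companions past 1.5-fold, and the 5 genes nearest to the member that differed most between siRNAs. Some marker genes of the cell type check are not reported here. Alternatives covered background correction, normalization, the probe and filter rules, and outlier spots.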

Additional observations from a re-analysis of the deposited data

How the results depend on the processing

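Over 9 alternatives, 76 of 90 recomputed means, counts and medians kept their side of the threshold or moved within the allowed range. The looser and stricter filters and the kept outlier spots left the ratio of every named gene unchanged. Sameness under these alternatives was thus largely built in. A reversal was defined only for the mean log2 ratio of SUB1, which stayed under 0 in all 9. The members at least 2-fold lower or higher did not change in number under any of them (1 and 2 lower, 0 higher). The mean log2 ratio of SUB1 lost its adjusted p of 0.05, and the count of members past it became 0, without background correction (-3.27), with median spot signals (-3.23), with median centering (-3.02), with the processed signals (-3.33) and with the authors' log2 table (-3.19). At an unadjusted p under 0.05, limma then gave 12, 9, 21, 7 and 10 members, beside 4081, 4022, 5707, 3890 and 4141 of all 19218 genes. Median centering, which raised the median of all genes from 0.024 on each array to 0.13 and 0.12, lowered the members under 0 to 9 with siRNA 1 and 12 with siRNA 2 and raised the median of the 43 members without SUB1 to 0.19 and 0.26. The cause was not tested. Of 234 ratios of named genes, 53 moved by more than the spot SD, none of them under the filter or outlier alternatives. With siRNA 1, ratios near 0 or of disagreeing probes changed sign: MED8 (0.26 to -0.02) and DR1 (0.03 to -0.23) with the mean of all kept probes, and MED27 (-0.10 to 0.01) and GTF2B (-0.02 to 0.19) with median centering, GTF2B also with the processed signals (0.01). The members at least 1.5-fold apart between the siRNAs numbered 2 (6.18% of all genes), and 4 with the processed signals (19.1% of all genes). No paired analysis was possible because each siRNA has 1 array, and the slide could not be fitted as a block because both arrays are on 1 slide. Low signals limit the ratios of dim genes such as MED27, MED12 and TAF13.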
